A study of Mus musculus with 4 samples.

Results

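Mitochondrial ribosomal protein genes were taken as all genes whose symbol starts with Mrpl or Mrps and a number, where a probe set carries that symbol alone. They comprised 76 of the 18194 genes and 156 of the 45101 probe sets on the array, a probe set being a group of short probes for 1 transcript. By symbol, 47 genes (104 probe sets) belong to the large subunit of the ribosome and 29 genes (52 probe sets) to the small subunit. The arrays were hybridized with RNA of RAW264.7 cells, a transformed mouse macrophage line, from 4 conditions with 1 Affymetrix array each. The control cells stayed in normoxia (NC) or hypoxia (HC) for 4 days, and their treated counterparts received IL6 over the same time (NC+IL6 and HC+IL6). The hypoxia incubator held 1% oxygen, and the dose of IL6, an inflammatory cytokine, was 25 ng/ml. The sources used here do not state how much oxygen normoxia had, the labels name no genetic change, and all 4 conditions come from this 1 line.

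The mitochondrial ribosome translates the few messenger RNAs that are made from mitochondrial DNA, which encode core subunits of the respiratory chain and of the ATP synthase. Its ribosomal RNAs come from mitochondrial DNA, whereas all of its proteins are encoded in the nucleus, made in the cytosol and imported. The small subunit reads the messenger RNA and the large subunit joins the amino acids. Many of the proteins have a bacterial counterpart, and the others are found in mitochondrial ribosomes but not in bacterial ones.

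Promoters of these genes are known for binding sites of NRF1 and of ETS factors such as GABP, which regulate nuclear genes of mitochondrial function. The 250 bases before the start of the gene, from RefSeq on GRCm38.p6, were matched to 67 of the 76 genes and searched on both strands. The letters GCATGCGC, a core of the NRF1 motif, occurred in 8 of the 67 (11.9%), against 2.56% of the windows of 27025 genes. The letters CCGGAAGT, a core of the ETS motif, occurred in 10 of the 67 (14.9%), against 3.23%. The 27025 genes include many that were not measured on these arrays, and the share among measured genes was not computed. The 5 windows below were chosen after the values were seen, to set genes with a lower signal in hypoxia beside Mrpl43, whose signal was nearly equal on all arrays. They lie at chr17:35916441-35916690 (Mrps18b, minus strand), chr13:99344536-99344785 (Mrps27, plus strand), chr9:98601680-98601929 (Mrps22, minus strand), chr9:105053018-105053267 (Mrpl3, plus strand) and chr19:45006443-45006692 (Mrpl43, minus strand). Each is written 5′ to 3′ along its gene and ends at the base before the start. Capitals mark the NRF1 letters in Mrps18b, the ETS letters in Mrps22, Mrpl3 and Mrpl43, and their reverse complement in Mrps27.
Mrps18b: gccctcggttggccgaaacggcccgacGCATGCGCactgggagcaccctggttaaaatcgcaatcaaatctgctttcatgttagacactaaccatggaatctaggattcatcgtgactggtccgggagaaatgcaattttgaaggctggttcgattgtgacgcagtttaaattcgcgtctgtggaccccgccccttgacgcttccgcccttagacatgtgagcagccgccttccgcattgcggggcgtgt
Mrps27: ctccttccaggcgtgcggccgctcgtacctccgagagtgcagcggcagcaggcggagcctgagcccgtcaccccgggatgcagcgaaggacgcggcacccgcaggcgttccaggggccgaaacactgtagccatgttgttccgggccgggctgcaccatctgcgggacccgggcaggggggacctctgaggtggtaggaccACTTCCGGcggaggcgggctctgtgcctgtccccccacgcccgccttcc
Mrps22: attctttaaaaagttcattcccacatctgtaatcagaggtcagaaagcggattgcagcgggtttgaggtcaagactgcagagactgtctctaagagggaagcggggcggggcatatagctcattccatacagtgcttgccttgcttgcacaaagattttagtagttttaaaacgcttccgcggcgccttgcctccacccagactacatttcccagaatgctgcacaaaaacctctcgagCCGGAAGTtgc
Mrpl3: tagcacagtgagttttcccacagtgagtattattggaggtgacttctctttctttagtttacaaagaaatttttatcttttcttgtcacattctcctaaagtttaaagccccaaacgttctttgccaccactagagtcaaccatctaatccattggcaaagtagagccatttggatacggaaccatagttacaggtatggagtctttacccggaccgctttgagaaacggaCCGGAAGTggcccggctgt
Mrpl43: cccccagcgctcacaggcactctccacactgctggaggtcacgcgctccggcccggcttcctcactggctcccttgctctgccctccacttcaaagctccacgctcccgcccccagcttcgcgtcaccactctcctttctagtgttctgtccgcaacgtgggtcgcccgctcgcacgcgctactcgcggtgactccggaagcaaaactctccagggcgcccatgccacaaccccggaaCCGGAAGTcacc

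The same ETS letters lie 4 to 11 bases before the start of Mrps22, 12 to 19 before that of Mrpl3, 5 to 12 before that of Mrpl43 and 42 to 49 before that of Mrps27. Mrps22 and Mrpl3 had log2 ratios of -0.60 and -0.57 for HC over NC, Mrps27 had -0.86, and Mrpl43 had -0.00. Over all 67 genes, the median log2 ratio for HC over NC was -0.30 with the ETS letters and -0.36 without them, and for HC+IL6 over NC+IL6 the order was the opposite, with -0.37 and -0.34. For the NRF1 letters the medians were -0.32 with and -0.36 without in the first comparison and -0.26 and -0.36 in the second, and Mrps18b, the small subunit gene that carries them (216 to 223 bases before its start), had -0.95. The letters AAGATGGC, a core of the YY1 motif, occurred in 4 of the 67 windows (5.97%, against 1.83% of all windows), with medians of -0.19 with and -0.33 without them, and -0.28 and -0.35 in cells given IL6. The core of the hypoxia response element, ACGTG or GCGTG, occurred in 39 (58.2%, against 41.5%), with medians of -0.30 and -0.38, and -0.33 and -0.36 in cells given IL6. As above, the shares of all windows include genes not measured here. A match describes the letters of a window and does not show a bound factor.

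The deposited values are log2 signals, and each array was scaled to the same mean signal, so a difference in total RNA per cell cannot be seen. Genes of other tissues set the floor of each array, below which a signal was not told from background, at log2 signals of 6.44 to 6.78, and 37.8% to 39.8% of the probe sets lay above it. A gene was represented by its brightest probe set, and 2-fold corresponds to 1.0 on the log2 scale. Since each condition had a single array, differences could not be set against replicates, and the precision is limited by the number of arrays. No test was run, and a model that adds hypoxia and IL6, which would take their interaction as error, was not fitted. The available spread was the disagreement between probe sets of the same gene. Its pooled SD of the log2 ratio over the mitochondrial ribosomal genes was 0.33 for HC over NC and 0.39 for HC+IL6 over NC+IL6. Probe sets of a gene share the same arrays, so this spread does not measure variation between cultures or arrays. All 8 macrophage markers (among them Csf1r, Cd68 and Lyz2) were above the floor. Of 20 markers of T cells, B cells, fibroblasts, endothelial, epithelial and erythroid cells with a probe set, Epcam was above it on 1 array and the others on none. Fewer cells of a type and less RNA per cell cannot be told apart in such samples. The median log2 ratio of 8 known hypoxia-induced genes was 1.39 for HC over NC and 0.91 for HC+IL6 over NC+IL6. These 8 genes were not particular to hypoxia, with medians of 0.99 for NC+IL6 over NC and 0.39 for HC+IL6 over HC. In NC+IL6 against NC, 7 of them were higher and 1 was lower. Of 8 genes listed for the IL6 response, 7 were measured, with medians of 1.09 for NC+IL6 over NC and 1.45 for HC+IL6 over HC. With IL6, 2 of the 7 were lower in normoxia and 0 in hypoxia. Socs3, a target of STAT3, had the highest ratios of that list, 2.23 in normoxia and 2.29 in hypoxia. Of all genes that differed by 2-fold or more between HC and NC, 77.7% were higher in HC, but 57.2% were after quantile normalization and 61.1% after cyclic loess. For HC+IL6 and NC+IL6 these shares were 69.0%, 51.7% and 50.9%. Actin probe sets at the 3′ and 5′ ends, whose ratio grows as RNA degrades, had a ratio of 1.54 (NC), 1.41 (NC+IL6), 1.73 (HC) and 1.62 (HC+IL6). The same ratio of Gapdh was lower in hypoxia, with 0.93, 0.93, 0.87 and 0.88 in that order. The part of RNA quality in the differences between normoxia and hypoxia was not tested.

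Mitochondrial ribosomal protein genes were lower in HC than in NC macrophages by a small amount that nearly all of them shared. All 76 genes were above the floor on all 4 arrays. Of these, 70 (92.1%) had a lower signal in HC than in NC, against 45.7% of the 9377 genes measured in this comparison, and 6 had a higher signal, against 54.3%. The median log2 ratio was -0.36, a change of -22.4% in signal, with quartiles of -0.48 and -0.20, whereas the median of all genes was 0.05. Most single genes differed by less than 1.5-fold. At 1.5-fold or more, 12 genes were lower in HC (background 6.91%) and 0 were higher (background 12.8%), and at 2-fold or more 1 was lower (background 1.07%) and 0 were higher (background 3.72%).

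**Figure D1:**
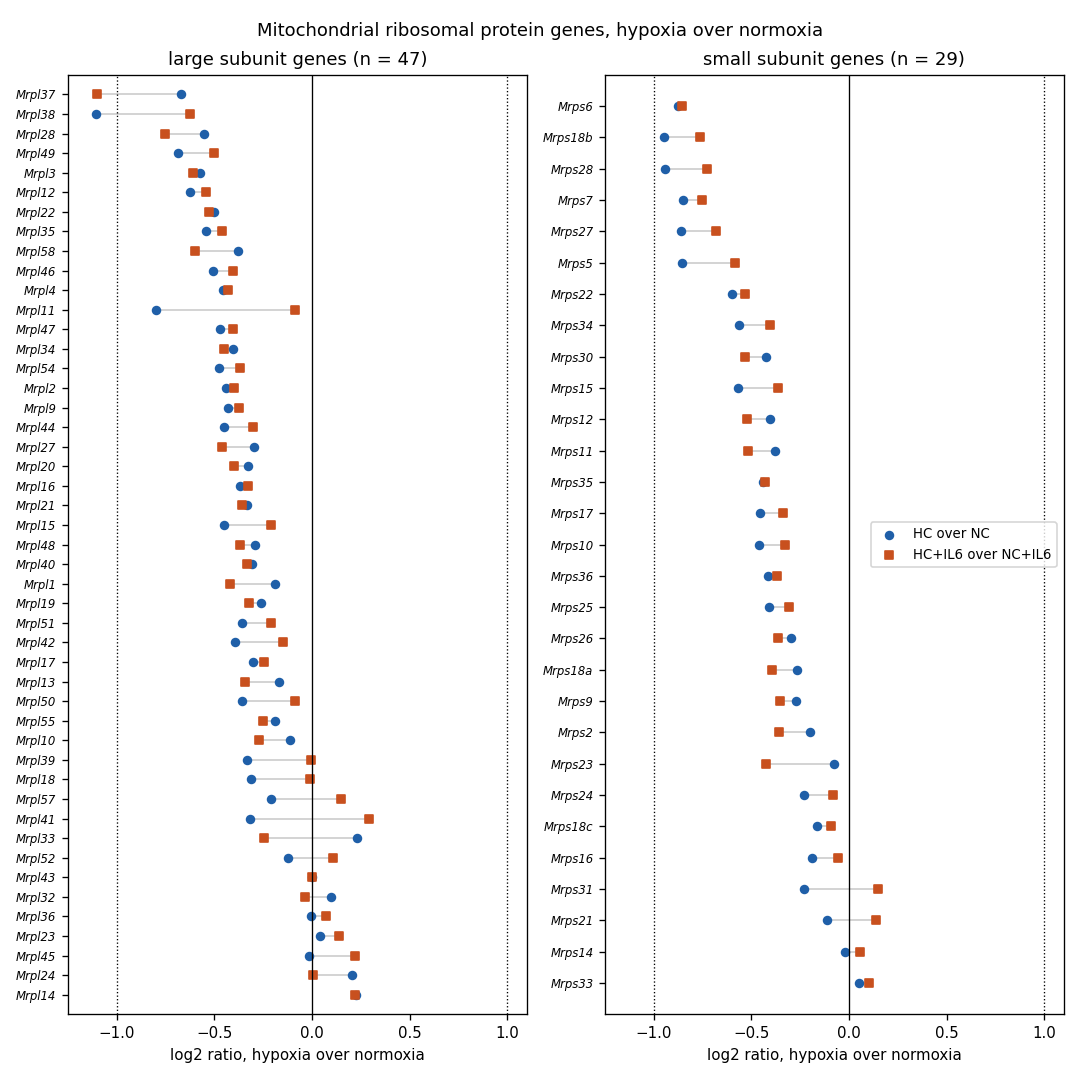
Log2 ratio of each mitochondrial ribosomal protein gene, hypoxia over normoxia, without IL6 (blue circles) and with IL6 (orange squares), in large (left) and small (right) subunit genes ordered by the mean of both ratios, with 1 array per condition. Most genes lie left of 0, and Mrpl38 and Mrpl37 reach the dotted line of a 2-fold lower signal in 1 comparison each.

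Among small subunit genes, Mrps18b, Mrps28, Mrps6, Mrps27, Mrps5 and Mrps7 formed the lower end. Mrps18b, which encodes a mitochondrion-specific protein of the S18 family, had log2 signals of 11.05 (NC), 11.30 (NC+IL6), 10.10 (HC) and 10.54 (HC+IL6). Both hypoxia arrays were below both normoxia arrays, and its signal was 1.93-fold lower in HC than in NC and 1.70-fold lower in HC+IL6 against NC+IL6. Mrps28, the counterpart of bacterial ribosomal protein bS1, had 11.91, 11.91, 10.97 and 11.18 in the same order. Its normoxia arrays were equal to the second decimal, and it was 1.92-fold and 1.65-fold lower in the hypoxia comparisons. Mrps27, a pentatricopeptide repeat protein that binds RNA, had 9.25, 9.33, 8.39 and 8.65, and was 1.81-fold and 1.61-fold lower. Mrps5 and Mrps7, which have bacterial counterparts near the decoding site and in the head of the subunit, had log2 ratios of -0.86 and -0.85 without IL6 and -0.58 and -0.75 with it.

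Large subunit genes reached the 2-fold limit with Mrpl38 and Mrpl37, both mitochondrion-specific proteins. Mrpl38 had log2 signals of 9.58 (NC), 9.64 (NC+IL6), 8.47 (HC) and 9.01 (HC+IL6). Its HC array was the lowest, 2.16-fold below NC, and HC+IL6 was 1.55-fold below NC+IL6. Its other probe set above the floor, which was dimmer, had a log2 ratio of 0.30 for HC over NC, so that the 2-fold difference rests on 1 probe set. Mrpl37 had 10.37, 10.08, 9.70 and 8.98 in the same order, with HC+IL6 the lowest. It was 1.59-fold lower in HC than in NC and 2.15-fold lower in HC+IL6 against NC+IL6, and no other probe set measures it. Both of these probe sets belong to the kind that can match more than 1 transcript. Mrpl28, which has a bacterial counterpart, had 11.89, 11.89, 11.34 and 11.14, and was 1.47-fold and 1.68-fold lower in the hypoxia comparisons. Mrpl12, part of the stalk that recruits translation factors, had 13.50, 13.28, 12.87 and 12.74, and Mrpl11, at the base of that stalk, had 11.92, 11.63, 11.13 and 11.54. Mrpl12 was thus lower in both comparisons (1.54-fold and 1.46-fold), while Mrpl11 was 1.74-fold lower without IL6 and 1.06-fold lower with it.

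**Figure D2:**
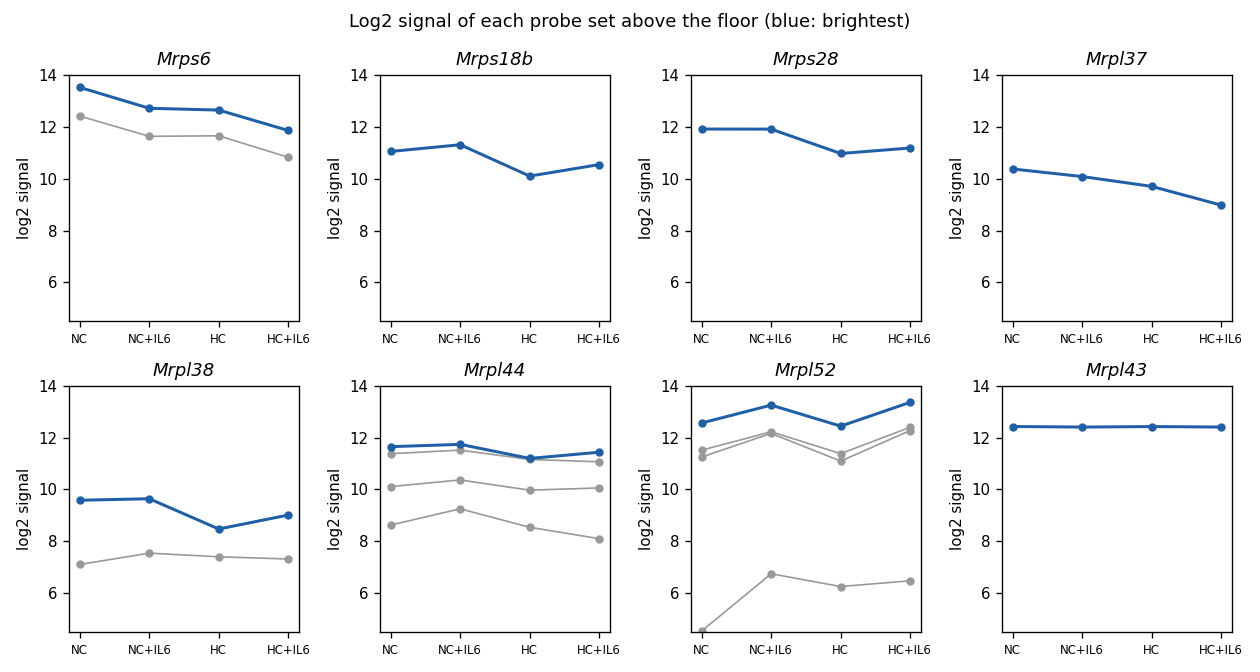
Log2 signal on the 4 arrays (1 per condition) of 8 genes, with each probe set above the floor on at least 1 array as a line and the brightest probe set of the gene in blue. Mrps6 steps down with hypoxia and with IL6 in both probe sets, Mrpl52 is higher on both IL6 arrays in its 3 bright probe sets, and Mrpl43 stays between 12.40 and 12.42.

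A few members were level or higher in hypoxia. Mrpl43 had log2 signals of 12.42, 12.40, 12.42 and 12.40 in NC, NC+IL6, HC and HC+IL6, and Mrps14, the counterpart of bacterial uS14, had 13.42, 13.34, 13.40 and 13.39. In the brightest probe set of both genes the 4 arrays lay within 0.1 of each other. A dimmer probe set of Mrps14, above the floor on all 4 arrays, had log2 ratios of 0.52 without and 0.31 with IL6 for hypoxia. The highest log2 ratios for HC over NC belonged to Mrpl33 at 0.23, Mrpl14 at 0.22, Mrpl24 at 0.21, Mrpl32 at 0.10 and Mrps33 at 0.05. With IL6 they belonged to Mrpl41 at 0.29, Mrpl14 at 0.22, Mrpl45, which anchors the ribosome near the inner membrane, at 0.22, Mrps31 at 0.15 and Mrpl57 at 0.15. Mrpl14, which lies at the face between the subunits, is the gene on both lists, with 10.96 and 11.00 in normoxia and 11.19 and 11.22 in hypoxia. The second bright probe set of Mrpl41 had a log2 ratio of -0.14 with IL6, so its place on the list rests on 1 probe set.

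In cells given IL6, the hypoxia difference was of the same size at the median. In HC+IL6 against NC+IL6, 63 of the 76 genes (82.9%) were lower, against 46.6% of the 9555 genes measured, and 13 were higher, against 53.4%. The median log2 ratio was -0.36, with all genes at 0.04. At 1.5-fold or more, 10 genes were lower (background 6.34%) and 0 were higher (background 11.7%), and at 2-fold 1 was lower (background 1.42%) and 0 were higher (background 3.17%). These comparisons share no array. Their log2 ratios had a Pearson r of 0.73 across the 76 genes and 0.67 across the 8567 genes above the floor on all arrays, as a description, since genes are not independent replicates and each array enters all of its ratios. Of the 76 genes, 61 were lower in both comparisons, 4 were higher in both and 11 differed in sign. The shares of all genes in these 3 classes were not computed. In 59 genes (77.6%), 34 of the large and 25 of the small subunit, both hypoxia arrays were below both normoxia arrays, against 24.4% of all genes. Under the other scalings this order held in 56 to 61 of the 76 genes, against 27.6% to 29.1% of all genes. The opposite order occurred in 2 genes, against 25.4% of all genes. The hypoxia log2 ratio with IL6 minus that without it had a median of 0.06 over the 76 genes and 0.00 over all genes. It was positive in 48 of the 76, a count for which the share over all genes was not computed. It was highest in Mrpl11 (0.71), Mrpl41 (0.61) and Mrpl38 (0.48) and lowest in Mrpl33 (-0.48), Mrpl37 (-0.43) and Mrps23 (-0.35). Another probe set of Mrpl11 had log2 ratios of -0.71 without and -0.72 with IL6, so its difference was not shared by all of its probe sets. The dimmer probe set of Mrpl38 above the floor had 0.30 without and -0.23 with IL6, a difference of the opposite sign. The second bright probe set of Mrpl41 had -0.31 without and -0.14 with IL6, below 0 in both.

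**Figure D3:**
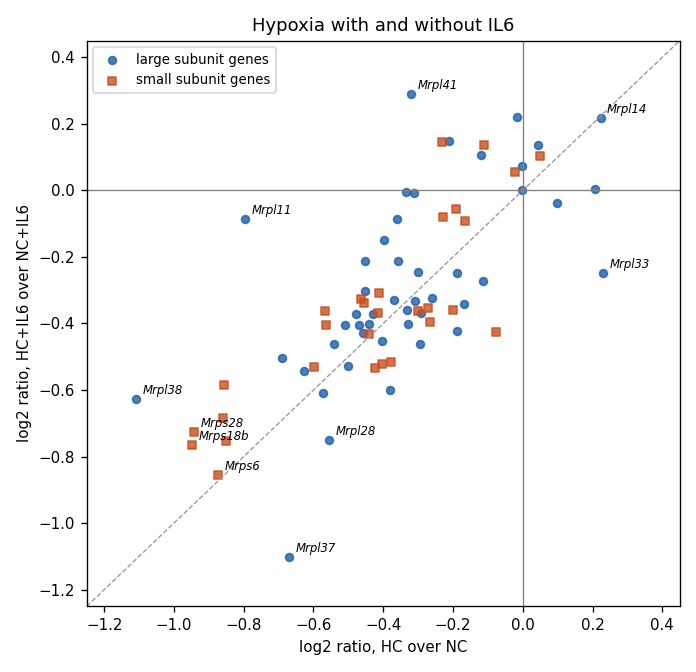
Log2 ratio of HC+IL6 over NC+IL6 (vertical) against that of HC over NC (horizontal) for each large (blue circles) and small (orange squares) subunit gene, with a dashed line of equal ratios. Most points lie to the lower left of the zero lines, and Mrpl11, Mrpl41, Mrpl38, Mrpl33 and Mrpl37 lie farthest from the line among the labelled genes.

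Across both comparisons, 15 genes were at least 1.5-fold lower in hypoxia in one or the other, and 7 of them were so in both: Mrps18b, Mrps28, Mrps6, Mrps27, Mrps7, Mrpl37 and Mrpl38. Without IL6 alone they were Mrpl11, Mrpl12, Mrpl49, Mrps5 and Mrps22, and with IL6 alone Mrpl28, Mrpl3 and Mrpl58. The share of all genes past this limit in either or in both comparisons was not computed. Mrpl58, which releases stalled peptides from their tRNA, had log2 signals of 12.04 (NC), 12.24 (NC+IL6), 11.66 (HC) and 11.64 (HC+IL6), with log2 ratios of -0.38 and -0.60. Mrpl49 had 11.12, 10.98, 10.43 and 10.47, with ratios of -0.69 and -0.50, and its dimmer probe set had -0.35 and 0.08. In the brightest probe set of both genes the hypoxia arrays lay below the normoxia arrays and within 0.1 of each other.

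Proteins that share a place in the ribosome did not all have the same values. Of the stalk proteins, Mrpl10 had log2 ratios of -0.12 and -0.27, beside the lower Mrpl11 and Mrpl12. Of the proteins around the exit tunnel, Mrpl22 had -0.50 and -0.53 and Mrpl47 -0.47 and -0.40, whereas Mrpl23 had 0.04 and 0.14 and Mrpl24 0.21 and 0.00. Among proteins in the head of the small subunit, Mrps7 had -0.85 and -0.75, Mrps10 -0.46 and -0.33, Mrps9 -0.27 and -0.35 and Mrps14 -0.02 and 0.05. Mrps12, a protein of the decoding site, had log2 signals of 10.88 (NC), 10.95 (NC+IL6), 10.47 (HC) and 10.43 (HC+IL6), and ratios of -0.40 and -0.52.

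The small subunit median was below that of the large subunit in both hypoxia comparisons, by less than the range between the quartiles of either. The median log2 ratio of HC over NC was -0.41 in the 29 small subunit genes (quartiles -0.57 and -0.23) and -0.33 in the 47 large subunit genes (quartiles -0.46 and -0.19). Small minus large was -0.08 without IL6 and -0.04 with IL6, where the medians were -0.37 and -0.33, and the ranges between quartiles overlapped in both. With IL6 it was -0.15 with the mean over the probe sets of each gene, and without IL6 it was 0.01 with every probe set counted on its own. Lower in HC than in NC were 28 of the 29 small and 42 of the 47 large subunit genes, and with IL6 25 and 38. At 1.5-fold or more, 7 small and 5 large subunit genes were lower without IL6 and 5 of each with IL6. The one small subunit gene above 0 for HC over NC was Mrps33. In the IL6 comparisons, the medians were -0.02 (small) and 0.00 (large) in normoxia and -0.01 and 0.01 in hypoxia.

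**Figure D4:**
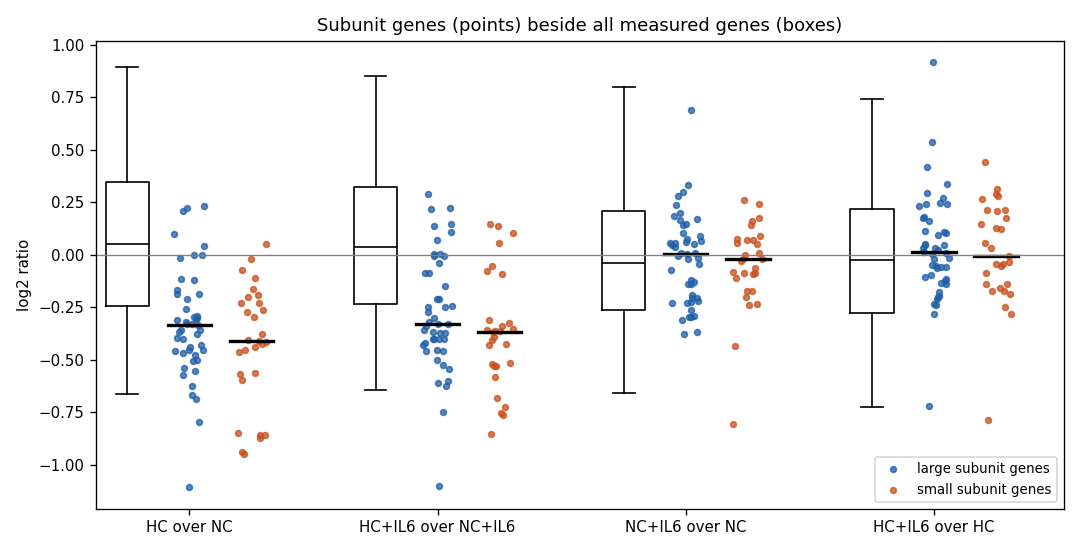
Log2 ratios of large (blue points) and small (orange points) subunit genes in the 4 comparisons, with black lines at their medians, beside boxes of all measured genes (quartiles, median, whiskers at the 5th and 95th percentiles). Both subunits lie below the box median in the hypoxia comparisons (left) and around 0 in the IL6 comparisons (right).

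Symbols do not always give the place in the ribosome. Mrps30 and Mrps18a encode proteins of the large subunit, and Mrps36 encodes a component of the 2-oxoglutarate dehydrogenase complex. Mrps30 had log2 ratios of -0.42 for HC over NC and -0.53 for HC+IL6 over NC+IL6, Mrps18a had -0.27 and -0.39, and Mrps36 had -0.42 and -0.37. With these moved to their place, small minus large was -0.07 and -0.03. Of the S18 family, Mrps18c, the counterpart of the bacterial protein, had -0.17 and -0.09, Mrps18a the values above, and Mrps18b the lowest, -0.95 and -0.76. The 45 genes with a bacterial counterpart had medians of -0.33 and -0.35, and the 30 mitochondrion-specific ones -0.37 and -0.37.

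With IL6 the group stayed near 0, with medians that turned sign under other scalings, and Mrps6 and Mrpl52 lay apart from the others. In NC+IL6 against NC, 40 of the 76 genes were lower (background 54.7%) and the median log2 ratio was -0.01. In HC+IL6 against HC, 36 were lower (background 53.1%) and the median was 0.01. No gene differed by 2-fold in either, where 3.45% of all genes were higher and 1.17% lower in normoxia and 2.44% higher and 1.87% lower in hypoxia. At 1.5-fold, Mrpl52 was higher in both (backgrounds 8.3% and 7.84%) and Mrps6 lower in both (backgrounds 6.79% and 8.29%), joined by Mrpl37 in hypoxia at -0.72. Both IL6 arrays were below both arrays without IL6 in 5 genes (background 22.4%) and above them in 6 (background 16.9%).

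Mrps6, the counterpart of bacterial bS6, had log2 signals of 13.51 (NC), 12.71 (NC+IL6), 12.64 (HC) and 11.85 (HC+IL6). NC was the highest and HC+IL6 the lowest array, and the arrays with a single treatment lay between them. Its log2 ratios were -0.87 and -0.86 in the hypoxia comparisons and -0.80 and -0.79 in the IL6 comparisons. Its other probe set had -0.76 and -0.81 for hypoxia and -0.78 and -0.83 for IL6, the same direction in all 4. Mrps6 overlaps Slc5a3, which encodes a myo-inositol transporter, in the RefSeq annotation. Slc5a3 had log2 ratios of -0.25 and -0.25 for hypoxia and -1.46 and -1.45 for IL6, and whether its transcripts reach the probes of Mrps6 was not tested.

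Mrpl52, a mitochondrion-specific protein of the large subunit, had 12.56 (NC), 13.25 (NC+IL6), 12.44 (HC) and 13.36 (HC+IL6). Both IL6 arrays were above both others, by 1.61-fold in normoxia and 1.89-fold in hypoxia. Its other 2 bright probe sets had log2 ratios of 0.71 and 0.91 in normoxia and 1.01 and 1.18 in hypoxia, so that IL6 went with a higher signal in all 3. Its next gene, Slc7a7, an amino acid transporter, had at least 2.07 in normoxia, where its NC signal was under the floor, and 0.29 in hypoxia. The next highest members for IL6 in normoxia were Mrpl55 at 0.33, Mrpl32 at 0.30, Mrpl33 at 0.28 and Mrps18b at 0.26, and the next lowest were Mrps21 at -0.43, Mrpl41 at -0.38, Mrpl42 at -0.37 and Mrpl36 at -0.31. In hypoxia, Mrpl38 at 0.54, Mrps18b at 0.44, Mrpl11 at 0.42 and Mrpl39 at 0.34 were next highest, and Mrpl48 at -0.29, Mrps9 at -0.28 and Mrps2 at -0.25 were next lowest. Mrpl52 and Mrps18b are the genes on both of these high lists. These ranks use the brightest probe set of each gene. For HC+IL6 over HC, a dimmer probe set had -0.08 in Mrpl38, 0.01 in Mrpl11, 0.25 in Mrps9 and 0.42 in Mrps2. The dimmer probe sets above the floor of Mrpl39 (0.35) and Mrpl48 (-0.51) kept the direction.

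Probe sets of 1 gene did not always have the same sign. Of the 156 probe sets, 120 were above the floor on all 4 arrays and 26 on none, and 42 of the 76 genes had several. For HC over NC, 20 of the 32 genes with several measured probe sets had the same sign in all, and with IL6 18 of 32 did. Signs differed with a gap over 1 log2 unit in Mrpl15, Mrpl19, Mrpl28, Mrpl3, Mrpl38, Mrps5 and Mrps9 in at least 1 comparison. In Mrps9 the brightest probe set had -0.35 for HC+IL6 over NC+IL6 and the dimmest 0.71, whose signals of 6.57 and 7.28 were near the floor. Mrpl3 had 3 probe sets, of which the bright ones had -0.57 and -0.56 for HC over NC and the dim one 0.25. Mrpl15 had 7 measured probe sets, all below 0 for HC over NC, and 6 of 7 below 0 with IL6. Mrpl44, a large subunit protein with the fold of an RNase III enzyme, had 4 probe sets, and all lay below 0, from -0.45 to -0.09 for HC over NC and from -1.15 to -0.30 with IL6. In Mrpl28 a bright probe set had 0.48 with IL6 against -0.75 in the brightest, so a high signal did not settle the sign there.

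Other genes of mitochondrial translation, taken from lists of known function, give the setting. Proteins of the ribosome under other names were lower in both hypoxia comparisons in 4 of 4. Gadd45gip1, beside the exit tunnel of the large subunit, had log2 signals of 10.36 (NC), 10.22 (NC+IL6), 9.35 (HC) and 9.62 (HC+IL6), a log2 ratio of -1.01 without IL6 and -0.60 with it. Ptcd3, a pentatricopeptide repeat protein of the small subunit, had -0.28 and -0.58, Chchd1 -0.43 and -0.22, and Dap3, a GTP-binding protein of the small subunit, -0.34 and -0.20. Of 26 measured assembly factors of the ribosome, 24 were lower in HC than in NC (median -0.44) and 22 were lower with IL6 (median -0.33). Their medians were -0.50 and -0.40 after quantile normalization, where the mitochondrial ribosomal genes had -0.32 and -0.31. After cyclic loess they were -0.49 and -0.40, beside -0.33 and -0.33. Fastkd2, which binds the large ribosomal RNA, had -0.83 and -0.79, and the GTPases Mtg2 and Noa1 had -0.83 and -0.80, and -0.68 and -0.73. Mpv17l2, an inner membrane protein needed for assembly, had -0.59 and -0.85.

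Of the 11 translation factors, 8 were lower in each hypoxia comparison, with medians of -0.12 and -0.20. The first was -0.25 after quantile normalization and -0.23 after cyclic loess. Among the lower ones were the elongation factors Gfm1 at -0.72 and -0.63 and Tsfm at -0.41 and -0.86, and Pdf, which removes the formyl group from new proteins, at -0.52 and -1.01. Higher ones were Guf1, a ribosome-binding GTPase, at 0.15 and 0.41 and Mtrf1l, a release factor, at 0.10 and 0.27, while the initiation factor Mtif2 had 0.28 and -0.19. Of the mitochondrial tRNA synthetases and their partners, 17 of 18 were lower without IL6 (median -0.25) and 17 of 19 with it (median -0.24), among them Yars2 at -0.72 and -0.60 and Wars2 at -0.76 and -0.59. Their medians were -0.43 and -0.49 after quantile normalization and -0.40 and -0.48 after cyclic loess, below those of the mitochondrial ribosomal genes, which were then -0.32 and -0.31, and -0.33 and -0.33. The 20 genes for mitochondrial DNA and RNA had medians of -0.15 and -0.25, with the RNA polymerase Polrmt at -0.70 and -0.58. Among 11 regulators of mitochondrial biogenesis the medians were 0.12 and 0.08, and from 0.04 to 0.06 and from 0.03 to 0.05 under the other scalings. Of these 11 genes, 5 were lower in HC than in NC and 3 in HC+IL6 than in NC+IL6. Whether a listed gene raises or lowers biogenesis was not taken into account. Mxi1, also on the list, had 0.21 and 0.43. Tfe3 had -0.52 and 0.00, Pprc1 -0.33 and -0.10 and Gabpb1 -0.29 and 0.00. Myc had at least 0.65 and 0.94, where its normoxia signals were under the floor. Gabpa, which encodes the DNA-binding chain of GABP, had 0.48 and 0.46 and Nrf1 0.12 and 0.25. Ppargc1b, a coactivator of the same pathway, had -0.22 and -0.21 for hypoxia and -0.81 and -0.79 for IL6, and Ppargc1a was under the floor on all arrays.

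Cytosolic ribosomal proteins, the nearest counterpart in function, had medians of -0.00 for HC over NC and 0.14 for HC+IL6 over NC+IL6 over 44 genes, but from -0.09 to 0.19 and from 0.00 to 0.24 under the other scalings. The genes listed here as respiratory chain include subunits of the ATP synthase. Both hypoxia arrays were below both normoxia arrays in 2 of the 44 cytosolic ribosomal genes and in 25 of 69 respiratory chain genes. The same order held in 16 of 24 assembly factors and in 12 of 17 tRNA synthetases, beside the 59 of 76 mitochondrial ribosomal genes. After quantile normalization this order held in 20 of 24 assembly factors, 12 of 17 tRNA synthetases and 56 of 76 mitochondrial ribosomal genes. After cyclic loess these counts were 19 of 25, 13 of 17 and 56 of 76. With arrays centred on the median of genes above the floor they were 17 of 24, 13 of 17 and 61 of 76. Of the 69 respiratory chain genes, the order held in 21, 16 and 29 under these scalings in turn (30.4%, 23.2% and 42.0%). Over all genes the shares were 28.4%, 27.6% and 29.1%, against 24.4% with the deposited scaling. The respiratory chain genes had medians of -0.17 without IL6 and 0.02 with it, from -0.25 to -0.01 and from -0.01 to 0.09 under the other scalings. In NC+IL6 against NC, 41 of 44 cytosolic ribosomal genes (median -0.17) and 64 of 72 respiratory chain genes (median -0.20) were lower, where the mitochondrial ribosomal genes had -0.01. After quantile normalization 28 of the 44 cytosolic ribosomal genes were lower and their median was -0.04, beside -0.14 for the respiratory chain and -0.03 for the mitochondrial ribosomal genes. The differences between these groups were not tested.

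**Figure D5:**
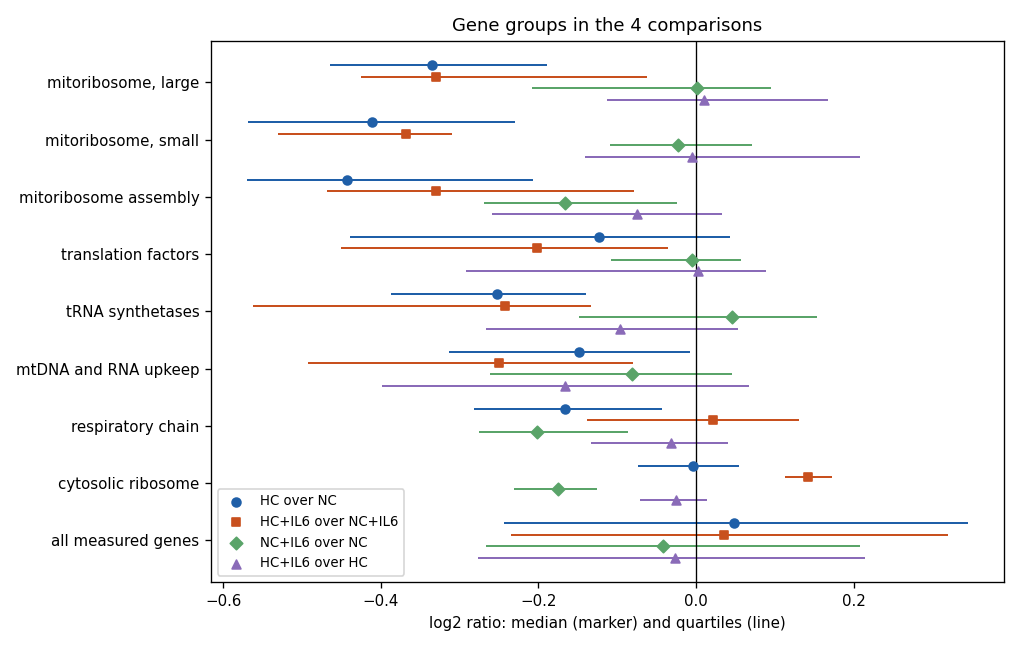
Median log2 ratio (marker) and range between the quartiles (line) of 9 gene groups in the 4 comparisons, with 1 array per condition. The respiratory chain group includes subunits of the ATP synthase. Both mitoribosome subunits and the assembly factors lie between -0.44 and -0.33 in the hypoxia comparisons, and the cytosolic ribosome lies at -0.00 and 0.14, values that turn sign or reach 0.00 under other scalings.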

How the data were processed

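RNA of RAW264.7 cells from 4 conditions was measured on 1 Affymetrix array each. The authors deposited log2 signals of 45101 probe sets, which the submitters' processing notes name as MAS5 output (no version is given in the sources used). The mean signal, trimmed by 2% at each end, was 500 on every array. Of the probe sets, 34958 carry 1 gene symbol and were used, 932 carry several and 9211 none. Mrpl30 and Mrpl53, whose symbols would match, are on probe sets with several symbols and were not analysed here. Where a gene had several probe sets, the brightest by mean log2 signal stood for it. Each floor came from 95 probe sets for 59 of 64 listed genes of other tissues, as the 95th percentile of their signals. In a comparison, a gene counted as measured if the higher of its signals exceeded the floor, and the lower was raised to the floor if needed. Ratios of 2 arrays were described with limits of 2-fold and 1.5-fold and no test, beside all measured genes. Named genes were those past 2-fold, the 5 highest and 5 lowest of each comparison, the 3 highest and 3 lowest differences between the hypoxia ratios, those with probe sets of opposite sign and a gap over 1 log2 unit, Mrps30, Mrps36 and the S18 family, whose symbols can differ from their place, and up to 4 genes of each other list. Beyond this rule, Mrps10, Mrps12, Mrps14, Mrps22, Mrpl10, Mrpl12, Mrpl22, Mrpl23, Mrpl43, Mrpl44, Mrpl47, Mrpl49, Mrpl58 and several genes of the other lists, Guf1, Mtrf1l and Mtif2 among them, were chosen after their values were seen. The members and lists were chosen with earlier results of these data known. Pooled SDs were taken between measured probe sets of a gene. Promoters were RefSeq sequences on GRCm38.p6. The strand of their windows was checked where neighbours on opposite strands overlap, and 1668 of 1668 were reverse complements. Overlapping and next genes were found from the gene coordinates of the RefSeq table. Python 3.11.15, numpy 2.4.6, pandas 2.3.3 and matplotlib 3.10.9 were used, and R 4.3.3 with limma 3.58.1 for the alternative normalizations. The calculation was tested on simulated data. Alternatives were 3 scalings, 3 ways to use probe sets, 3 floors, a pseudocount, subunits by structure and the 1.5-fold limit.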

Additional observations from a re-analysis of the deposited data

Results flagged for a closer look

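In 6 genes the log2 ratio of hypoxia over normoxia turned its sign between cells with IL6 and cells without it, and was at least 0.1 in size in each. The share of all genes with such a turn was not computed, so this count has no background. The ratio with IL6 minus that without it was -0.48 in Mrpl33, 0.61 in Mrpl41, 0.23 in Mrpl52, 0.36 in Mrpl57, 0.25 in Mrps21 and 0.38 in Mrps31. Mrpl33 was higher in hypoxia without IL6 and lower with it, and the other 5 went the opposite way. The second bright probe set of Mrpl41 had -0.31 without and -0.14 with IL6, the same sign in both. The second probe set of Mrps21, which was dimmer, had 0.71 and 0.45, also without a turn, and that of Mrpl57 had 0.26 for HC over NC and was under the floor on both IL6 arrays. Under the other scalings no sign changed, but some ratios fell below 0.1 in size. For HC over NC these were Mrpl52 (-0.02), Mrps21 (-0.06) and Mrpl57 (-0.09) after quantile normalization and Mrpl52 (-0.01) and Mrps21 (-0.06) after cyclic loess. With arrays centred on the median of genes above the floor, it was Mrpl52 with IL6 (0.08). Mrpl33, Mrpl41 and Mrps31 stayed at 0.1 or more under all 3 scalings. The difference was not tested in any of the 6 genes.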

How the results depend on the processing

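In both hypoxia comparisons the subunit medians kept their direction under all alternatives run. For HC over NC the large subunit median lay between -0.42 and -0.28 and the small between -0.50 and -0.30, and with IL6 between -0.36 and -0.22 and between -0.40 and -0.32. Small minus large for HC over NC lay between -0.11 and 0.01, above 0 when every probe set was counted on its own, and with IL6 between -0.15 and -0.03, lowest with the mean over probe sets. The difference between members and all genes at the median was -0.41 and -0.39, but -0.29 and -0.27 after quantile normalization and -0.31 and -0.30 after cyclic loess. Members below 0 numbered 70 and 63 of 76, but 64 and 56 with the mean over probe sets. Counts of members past the limit depended on the setting. For HC over NC, lower genes numbered 1, but 2 after quantile normalization, 3 with arrays centred on the median of genes above the floor, 0 with the mean over probe sets, 0 without probe sets ending in _x_at or _s_at and 12 at 1.5-fold. For HC+IL6 over NC+IL6 they numbered 1, but 2 with every probe set counted, 0 without the _x_at and _s_at probe sets and 10 at 1.5-fold. For NC+IL6 over NC, higher genes numbered 0, but 1 with the mean over probe sets and 1 at 1.5-fold, and lower genes 0, but 1 at 1.5-fold. For HC+IL6 over HC, higher genes numbered 0, but 2 with every probe set counted and 1 at 1.5-fold, and lower genes 0, but 2 at 1.5-fold. Over all genes, 100 were 2-fold lower in HC than in NC, but 179 after quantile normalization and 161 after cyclic loess, and without a floor 2862 were higher and 2096 lower. Where not named, the cause was not tested. No analysis paired by replicate number was possible because each condition has 1 array. The conditions thus share fewer than 2 replicate numbers, and no array could be left out either. Pairs of arrays with the same IL6 state are the hypoxia comparisons given side by side. Signals near the floor, as in the dim probe sets of Mrps9 and Mrpl19, limit the precision.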

Other observations

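Mrps7 lies next to Nup85, which encodes a nuclear pore protein, and their values were close in both hypoxia comparisons. Mrps7 had log2 ratios of -0.85 without and -0.75 with IL6, and Nup85 had -0.84 and -0.87. Of the 76 genes, 19 are overlapped by another protein-coding gene in the RefSeq table. The genes that overlap Mrps7 in that table had other values, with -0.06 and -0.25 in Gga3 and 0.60 and -0.19 in Mif4gd. The pair was chosen after the values were seen.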
